A study of Rattus norvegicus with 12 samples.

Results

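Integrins, laminins and claudins are families of adhesion genes. On the rat liver arrays they were represented by every probe set whose single annotated gene symbol begins with Itga, Itgb, Lama, Lamb, Lamc or Cldn and matches the naming pattern of the family. This gave 75 probe sets for 52 genes, of 14217 genes measured, and each gene was followed by its brightest probe set on average over the arrays. The 52 genes were 22 integrin chains, 10 laminin chains, 16 claudins and 4 genes named after integrins that encode no integrin chain (Itgb1bp1, Itgb1bp2, Itgb3bp and Itgbl1). Control probe sets for bacterial RNA that the samples lack show how bright a probe set can be with no target. A level at or below the highest of these controls on its array, or in its group for a mean, is called within the range of absent RNA. Itga11 was within it on all 12 arrays, and each other member lay above it on at least 1.

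Integrins are receptors made of an alpha and a beta chain that bind the extracellular matrix or other cells. Laminins are trimers of an alpha, a beta and a gamma chain that form the base of the basement membrane, a sheet that underlies bile ducts and most vessels but is sparse along normal liver sinusoids. Claudins span the membrane at tight junctions, which seal bile canaliculi and ducts. Hepatocytes normally express few integrins, and duct cells express laminin-binding ones.

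Tumor liver of Long Evans Cinnamon (LEC) rats at 67 weeks of age was represented by 4 arrays, and adjacent nontumor LEC liver of that age by 4 arrays. Liver of Long Evans Agouti (LEA) rats at 67 weeks, the control strain, and LEC liver at 4, 26 and 39 weeks had 1 array each. LEC rats lack a working copy of the copper transporter Atp7b, so copper builds up in their livers and tumors arise with no other treatment, and no genotype or agent beyond the strain is given. All animals were labelled male and kept free of specific pathogens. Every array held RNA pooled from several specimens: each tumor or nontumor array mixed 2 of 8 specimen pairs, and the number of rats in the single pools is not given. P-values therefore measure the spread between pools, and the number of arrays limits the precision. Values are log2 expression, levels are given as mean ± SD (n = 4) and differences as log2 units ± SE. Rises and falls are called at an adjusted p under 0.05 in a limma model fitted over 31042 probe sets.

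Some arrays stood apart. Xist, an RNA of female cells, was bright on 10 arrays (11.36 to 13.12) and dim in the pools of 26 weeks (5.27) and 39 weeks (5.67). Eif2s3y, a Y-linked gene, did the reverse, with 8.90 at 26 weeks, 8.18 at 39 weeks and at most 3.81 elsewhere. These values go against the male label of 10 arrays, and sex cannot be told apart from age between 4 weeks and the later ages. Among the tumor arrays, array 3 held the highest hepatocyte marker median (12.92, against 12.23, 11.08 and 9.08 on arrays 1, 2 and 4). On nontumor arrays the median of the 14 measured hepatocyte markers was 13.36 to 13.74. The range of absent RNA reached up to 5.67 on tumor arrays, 6.01 on nontumor arrays and 6.11 on the LEA array, and a level within it is not an exact one.

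The 250 bases before the start listed for each gene in a RefSeq promoter table (build GRCr8) are shown for 6 members on which the results turn. That start is the outer end of the annotated gene for 4 of them, but lies 39 bases inside it for Lamb3 and 48846 bases inside it for Itgb6, whose window precedes an internal start. Cldn7, Cldn8, Itgb6, Lamb3 and Lama5 rose strongly in tumors, and Cldn1 had the largest fall. Cldn7, Cldn8, Lamb3 and Lama5 were also at least 2-fold higher at 26 weeks than at 4 weeks. Capitals mark a GC box (GGGCGG), the sequence CCAAT or an AP-1 site (TGANTCA) on either strand, and no matches overlap.
Cldn7 (chr10:55188420-55188669, plus strand): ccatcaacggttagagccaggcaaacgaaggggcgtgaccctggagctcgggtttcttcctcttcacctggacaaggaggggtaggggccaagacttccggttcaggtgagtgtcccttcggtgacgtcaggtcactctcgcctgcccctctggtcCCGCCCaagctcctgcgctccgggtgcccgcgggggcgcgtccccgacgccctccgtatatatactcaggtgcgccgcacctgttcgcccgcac
Cldn8 (chr11:41364331-41364580, minus strand): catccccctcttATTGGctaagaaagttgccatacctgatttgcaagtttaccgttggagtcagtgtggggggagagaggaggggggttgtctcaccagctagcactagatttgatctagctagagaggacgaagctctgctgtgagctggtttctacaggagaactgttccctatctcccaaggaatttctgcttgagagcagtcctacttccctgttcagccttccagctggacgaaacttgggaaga
Itgb6 (chr3:65530334-65530583, minus strand): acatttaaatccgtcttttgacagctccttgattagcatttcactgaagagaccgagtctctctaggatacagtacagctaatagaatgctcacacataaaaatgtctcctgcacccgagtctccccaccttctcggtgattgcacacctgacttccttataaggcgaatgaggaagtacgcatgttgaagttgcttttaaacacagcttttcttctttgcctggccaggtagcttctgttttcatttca
Lamb3 (chr13:107362303-107362552, plus strand): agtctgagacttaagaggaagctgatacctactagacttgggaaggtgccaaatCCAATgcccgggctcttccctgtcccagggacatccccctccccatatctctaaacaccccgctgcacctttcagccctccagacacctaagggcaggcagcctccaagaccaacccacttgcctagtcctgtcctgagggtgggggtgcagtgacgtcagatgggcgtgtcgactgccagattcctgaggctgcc
Lama5 (chr3:187695975-187696224, minus strand): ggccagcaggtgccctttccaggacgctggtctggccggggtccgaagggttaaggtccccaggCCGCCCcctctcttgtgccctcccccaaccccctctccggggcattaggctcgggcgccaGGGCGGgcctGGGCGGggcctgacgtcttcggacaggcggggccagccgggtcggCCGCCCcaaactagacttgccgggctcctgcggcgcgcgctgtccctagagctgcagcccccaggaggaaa
Cldn1 (chr11:87926126-87926375, plus strand): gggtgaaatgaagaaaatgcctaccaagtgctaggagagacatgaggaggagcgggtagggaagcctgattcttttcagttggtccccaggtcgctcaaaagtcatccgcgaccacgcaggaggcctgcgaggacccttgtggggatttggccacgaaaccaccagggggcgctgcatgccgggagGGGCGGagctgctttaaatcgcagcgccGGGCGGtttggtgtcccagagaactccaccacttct

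RefSeq promoters were matched for 42 of the 52 members. Lama5 held 4 GC boxes, Cldn1 held 2 and Cldn7 held 1, Cldn8 and Lamb3 each held a CCAAT box, and none of the 3 motifs was in the Itgb6 window, which says nothing of its outermost start. Of 25 members that rose in tumors and had a promoter, 14 held a GC box, 8 a CCAAT box and 1 an AP-1 site, and of 7 that fell, 2 held a GC box, 1 a CCAAT box and 0 an AP-1 site. Over the promoters of 11701 measured genes the shares were 54.2% for the GC box, 35.1% for the CCAAT box and 4.8% for the AP-1 site. A match describes these letters in this window and is not a site shown to be bound.

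Tumor and adjacent nontumor liver were compared, the question being what sets a tumor apart from the liver beside it. Of the 52 members, 31 rose in tumors (59.6%), 7 fell (13.5%) and 14 did not pass the test. Over all 14217 genes, 38.8% rose and 29.2% fell. Tumor arrays lay all above the nontumor arrays for 29 members (55.8%, against 36.1% of all genes) and all below for 6 (11.5%, against 27.7%). Rises were led by Cldn7, Itgb6, Itgb4, Cldn4, Lamb2 and Lamb3, each by more than 3.7 log2 units, and falls by Cldn1 and Cldn14. The median difference was 0.64 over the members and 0.07 over all genes. In tissue RNA a change in the number of cells of a type cannot be told apart from a change in RNA per cell.

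**Figure D1:**
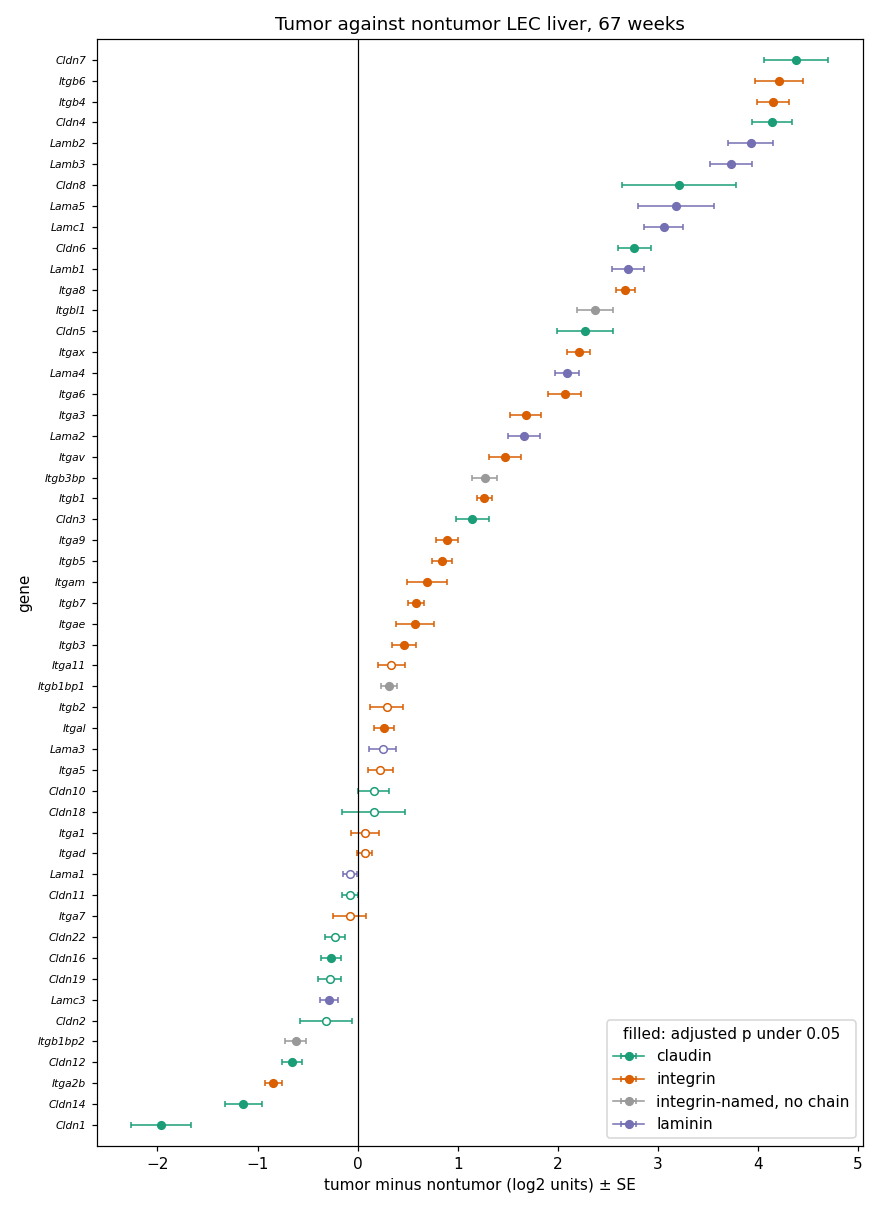
Difference between tumor and nontumor arrays (log2 units, horizontal axis) with its standard error for each of the 52 genes, coloured by family, and filled where the adjusted p was under 0.05. The 31 rises reach 4.38 for Cldn7, and the 7 falls reach -1.96 for Cldn1.

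Of the 16 claudins, 6 rose, 4 fell and 6 did not pass the test. These counts lay near the shares over all genes (38.8% rose and 29.2% fell). The claudin median was 0.04, against 0.07 over all genes. Cldn7, a claudin of ducts and other simple epithelia, lay at 11.41, 11.65, 11.08 and 11.73 on the tumor arrays and at 6.68, 7.78, 7.59 and 6.30 on the nontumor arrays. The groups did not overlap, and nontumor arrays 2 and 3 stood above 1 and 4. Cldn7 rose by 4.38 ± 0.32 (20.8-fold, adjusted p = 1.1e-05). Cldn4, another claudin of ductal epithelium, lay at 11.18, 11.15, 11.06 and 11.69 in tumors and at 6.71, 7.30, 7.54 and 6.96 in nontumor liver. All tumor values exceeded all nontumor values, a rise of 4.14 ± 0.20 (17.7-fold, adjusted p = 1.6e-06). Cldn3, which is the direct neighbour of Cldn4 on chromosome 12 and is made by hepatocytes and duct cells, rose less (1.15 ± 0.16, adjusted p = 3.9e-04). It averaged 11.93 ± 0.32 in tumors and 10.78 ± 0.20 in nontumor liver.

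Cldn6, a claudin typical of embryonic epithelia, lay at 10.65, 10.64, 9.92 and 10.46 in tumors and at 7.49, 7.81, 7.76 and 7.55 in nontumor liver. With no overlap, it rose by 2.76 ± 0.17 (6.79-fold, adjusted p = 4.1e-06). Cldn8, a barrier claudin of kidney and gut epithelium, was the most uneven member in tumors, at 9.95, 10.02, 7.79 and 10.41. Its nontumor values were 5.90, 6.74, 7.10 and 5.58, of which arrays 1 and 4 lay in the range of absent RNA. Tumor array 3 came within 1 log2 unit of the highest nontumor array, though the groups did not overlap. The rise of Cldn8 was 3.21 ± 0.57 (9.26-fold, adjusted p = 0.0013), and 3.79 without tumor array 3. Cldn5, the claudin of endothelial tight junctions, was high on tumor array 3 instead, at 9.52 against 8.27, 8.26 and 8.21 on the others. Its nontumor values lay between 6.14 and 6.52, below every tumor value, and it rose by 2.27 ± 0.28 (adjusted p = 1.6e-04). Of the 13 measured endothelial markers 8 rose and 3 fell, against 38.8% and 29.2% of all genes. These markers had a list median of 9.88 on tumor array 3 and 9.64 to 9.70 on the other tumor arrays. Their summed level, as log2 of the summed intensities, lay between 13.47 and 13.76 in tumors and between 13.11 and 13.45 in nontumor liver. Whether endothelial cells account for the Cldn5 values was not tested.

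**Figure D2:**
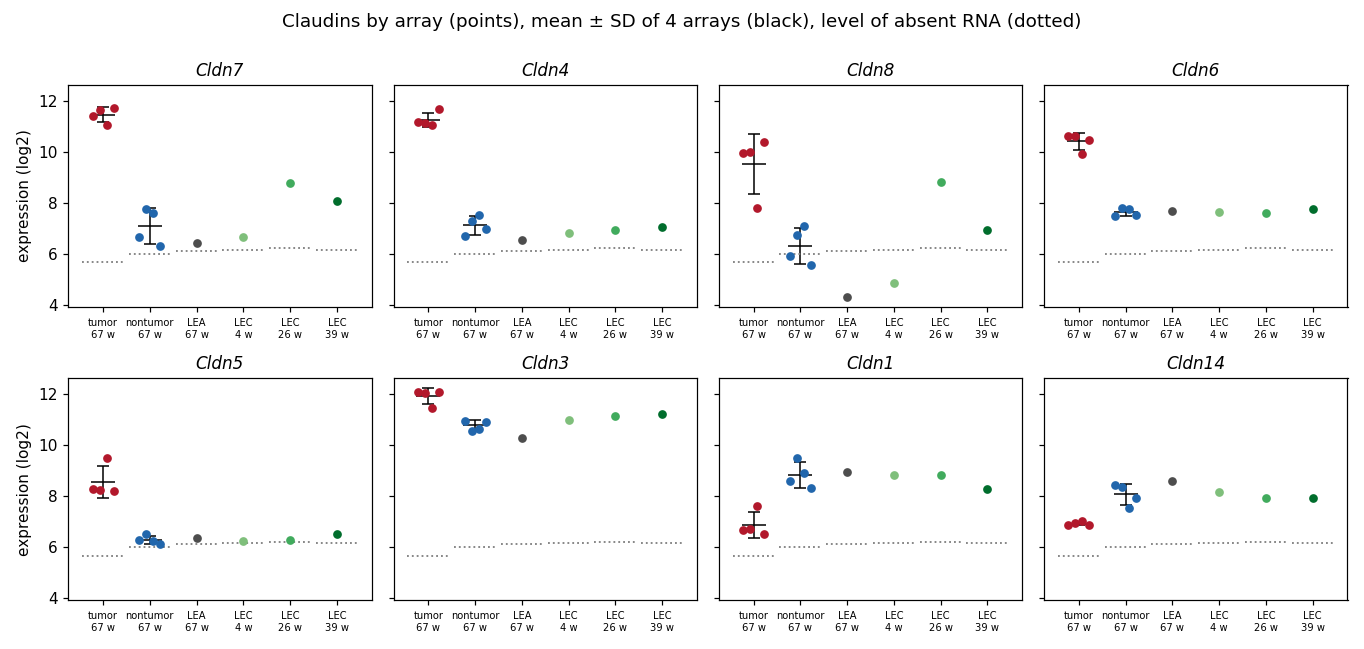
Expression (log2, vertical axis) of 8 claudins on each array, with 4 tumor, 4 nontumor and 4 single arrays, mean ± SD of the groups of 4 in black and the level of absent bacterial RNA dotted. Cldn7, Cldn4, Cldn8, Cldn6, Cldn5 and Cldn3 are higher on every tumor array than on any nontumor array, while Cldn1 and Cldn14 are lower, and Cldn7 and Cldn8 are also high at 26 weeks.

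Among the claudins that fell was Cldn1, which seals bile canaliculi. It lay at 6.66, 6.71, 7.60 and 6.52 in tumors and at 8.59, 9.51, 8.91 and 8.33 in nontumor liver. The groups did not overlap, and Cldn1 fell by 1.96 ± 0.30 (adjusted p = 5.4e-04), with tumor array 3 the nearest to nontumor liver. Both further probe sets of Cldn1 fell too (-2.58 and -2.31), the first to a tumor level within the range of absent RNA. Cldn14, known in hepatocytes and the inner ear, stood between 6.87 and 7.02 in tumors and at 8.46, 8.36, 7.54 and 7.93 in nontumor liver, a fall with no overlap (-1.14 ± 0.19, adjusted p = 7.7e-04). Cldn12 averaged 9.29 ± 0.11 in tumors and 9.94 ± 0.16 in nontumor liver, and fell (-0.65 ± 0.10, adjusted p = 5.2e-04). Cldn16, a kidney claudin next to Cldn1 on chromosome 11, lay within the range of absent RNA in both groups, so its call as lower (adjusted p = 0.043) gives no exact difference. The call was lost in 6 of 8 fits that left out 1 array (adjusted p up to 0.12), with quantile normalization again (-0.13, adjusted p = 0.29) and with a replicate block (adjusted p = 0.063).

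Hepatocyte markers moved the same way, with 11 of 14 falling and 0 rising in limma, against 29.2% and 38.8% of all genes. At an unadjusted p under 0.05, 13 were lower and 0 higher. Their summed level lay between 14.41 and 16.99 in tumors and between 17.31 and 17.53 in nontumor liver. Cldn2, a pore-forming claudin of perivenous hepatocytes, lay at 9.63, 9.60, 10.59 and 9.39 in tumors and at 10.23, 10.44, 10.12 and 9.69 in nontumor liver. The groups overlapped through tumor array 3, and the difference (-0.32 ± 0.26) did not pass the test (adjusted p = 0.31). Without tumor array 3 it was -0.58 and passed (adjusted p = 0.018). Cldn1 and Cldn2 were thus both highest on the tumor array with the highest hepatocyte marker median, and the part of hepatocyte content in these values was not tested.

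Claudin 18 (Cldn18), of stomach and lung epithelium, had probe sets that disagreed. Its brightest one lay at 8.32, 8.02, 6.93 and 8.04 in tumors and between 7.13 and 8.15 in nontumor liver, with a difference of 0.16 ± 0.32 that did not pass (adjusted p = 0.67). The other probe sets rose by 0.90 and 0.72 (adjusted p = 0.0068 and 0.025), again with tumor array 3 the lowest in tumors. Cldn19 (-0.28 ± 0.12), Cldn22 (-0.22 ± 0.10), Cldn10 (0.16 ± 0.16) and Cldn11 (-0.08 ± 0.08) did not pass the test. Cldn10 passed without nontumor array 3 (0.32, adjusted p = 0.027) and Cldn19 without nontumor array 2 (-0.34, adjusted p = 0.033). Cldn11 lay in the range of absent RNA in both groups and Cldn10 in nontumor liver.

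The tight junction partners of claudins, from a list of 30 genes of which 27 were measured, rose in 25 cases and fell in 1. The scaffold Amot (2.30 ± 0.07), its relative Amotl1 (2.12 ± 0.09) and the scaffold Magi3 (2.10 ± 0.30) had the largest rises, and the junctional adhesion molecule Jam3 was the fall (-0.65 ± 0.20). Occludin (Ocln, 1.30 ± 0.17) and the main scaffold Tjp1 (1.52 ± 0.14) also rose. The list median was 1.11, against 0.07 for all genes, of which 38.8% rose and 29.2% fell.

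Laminins rose in 7 of 10 chains, fell in 1 and did not pass in 2, with a median of 2.40. Of all genes, 38.8% rose and 29.2% fell, with a median of 0.07. Lama5, the alpha chain of epithelial and vascular basement membranes, lay at 11.62, 11.60, 10.87 and 11.75 in tumors and at 7.15, 8.77, 8.99 and 8.20 in nontumor liver. There was no overlap, and nontumor array 1 stood lowest. The rise was 3.18 ± 0.38 (9.07-fold, adjusted p = 1.4e-04) by this probe set. The other probe sets of Lama5, which were dimmer, gave 0.12 (not called) and -0.23 (called lower), so the size rests on 1 of 3. Lama4, of endothelium and muscle, rose by 2.09 ± 0.12 (adjusted p = 3.1e-06) and its further dim probe set was not called (-0.03, adjusted p = 0.84). It averaged 8.67 ± 0.20 in tumors and 6.58 ± 0.15 in nontumor liver. Lama2, of muscle and stromal matrix, averaged 9.25 ± 0.27 in tumors and 7.59 ± 0.24 in nontumor liver (1.66 ± 0.16, adjusted p = 4.2e-05).

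All 3 measured beta chains rose. Lamb2 stood at 10.91, 11.07, 10.42 and 11.43 in tumors and at 6.85, 7.25, 7.35 and 6.67 in nontumor liver, a gap larger than either spread (3.93 ± 0.23, 15.2-fold, adjusted p = 3.3e-06). Lamb3, a chain of laminin-332 that anchors hemidesmosomes in skin, stood at 10.09, 10.28, 10.07 and 10.76 in tumors and at 6.31, 6.92, 6.84 and 6.21 in nontumor liver. Again there was no overlap (3.73 ± 0.21, 13.3-fold, adjusted p = 2.9e-06). Its partner Lama3 did not pass (9.39 ± 0.15 in tumors, 9.14 ± 0.24 in nontumor liver, difference 0.25 ± 0.13, adjusted p = 0.12), and its sign turned when the arrays were quantile normalized again (-0.057). Without nontumor array 2 it passed (0.33, adjusted p = 0.046). Lamb1, of the embryonic and vascular laminins, averaged 10.79 ± 0.14 in tumors and 8.09 ± 0.35 in nontumor liver (2.70 ± 0.16, adjusted p = 4.3e-06).

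Lamc1, the gamma chain of most laminins, lay at 11.97, 12.18, 11.46 and 12.16 in tumors and at 8.82, 9.20, 9.01 and 8.50 in nontumor liver. It rose by 3.06 ± 0.19 (8.34-fold, adjusted p = 5.3e-06), and its further probe set by 2.85. Lamc3 fell slightly (-0.28 ± 0.09, adjusted p = 0.022) with no overlap, averaging 7.27 ± 0.12 in tumors and 7.55 ± 0.12 in nontumor liver. This call was lost without tumor array 1 (adjusted p = 0.057) or 2 (adjusted p = 0.065). Lama1, the embryonic alpha chain, showed -0.07 ± 0.07 (adjusted p = 0.39).

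**Figure D3:**
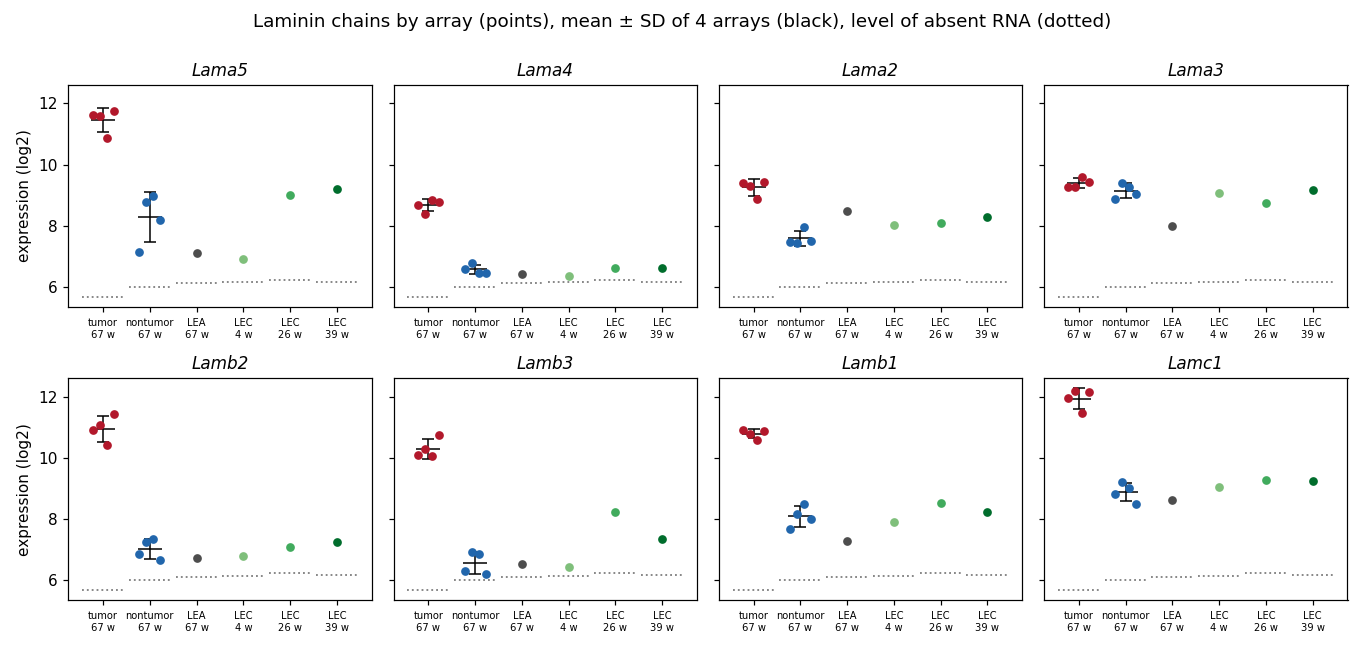
Expression (log2, vertical axis) of 8 laminin chains on each array, drawn as for the claudins. Lama5, Lama4, Lama2, Lamb2, Lamb3, Lamb1 and Lamc1 separate tumor from nontumor arrays, Lama3 does not, and on the LEA array Lama3 (8.00) is below every LEC array.

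Partners of laminins in the basement membrane rose in 16 of 20 measured genes and fell in 2, with a median of 1.53. Of all genes, 38.8% rose and 29.2% fell. The peroxidase Pxdn, which crosslinks collagen IV, rose by 3.49 ± 0.17, agrin (Agrn), a laminin-binding proteoglycan, by 3.24 ± 0.18, and the laminin-511 receptor Bcam by 2.96 ± 0.16. The collagen IV chains Col4a6 (-0.43 ± 0.14) and Col4a4 (-0.33 ± 0.10) were the falls. Stellate cell and fibroblast markers rose in 13 of 15 genes and fell in 0, against 38.8% and 29.2% of all genes. Their summed level was 14.80 to 15.36 in tumors and 12.70 to 13.16 in nontumor liver. Their part in the laminin rises was not tested.

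Integrins rose in 15 of 22 chains, fell in 1 and did not pass in 6, with a median of 0.64. The shares over all genes were 38.8% (rose) and 29.2% (fell), with a median of 0.07. Of the 4 chains taken here as laminin receptors, 3 rose and Itga7 did not pass. Itgb4, the beta chain that pairs with alpha 6 in hemidesmosomes, lay at 11.42, 11.44, 11.27 and 11.63 in tumors and at 6.85, 7.47, 7.61 and 7.23 in nontumor liver. The tumor arrays were close to each other and far above the rest (4.15 ± 0.16, 17.8-fold, adjusted p = 8.9e-07). Itga6 lay at 11.04, 11.12, 11.04 and 11.23 in tumors and at 8.52, 9.20, 9.37 and 9.08 in nontumor liver. It rose by 2.07 ± 0.17 (4.19-fold, adjusted p = 1.7e-05), and 2 of its 3 further probe sets rose (1.16 and 1.35) while the third was not called (-0.23). Itga3, the alpha chain of the laminin-332 receptor, averaged 10.38 ± 0.32 in tumors and 8.70 ± 0.12 in nontumor liver (1.68 ± 0.15, adjusted p = 3.2e-05). Itga7, the laminin receptor of muscle, was not called by its brightest probe set (-0.08 ± 0.17), and without nontumor array 1 or 2 its sign turned (0.027 and 0.0018). Its other probe sets fell (-0.54 and -0.93), the first within the range of absent RNA on every array.

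Chains that bind the RGD sequence of fibronectin, vitronectin and latent TGF-beta rose in 5 of 7 cases, against 38.8% of all genes. Itgb6, an epithelial chain that activates latent TGF-beta, lay at 10.21, 10.58, 9.84 and 10.76 in tumors and at 5.61, 6.17, 6.54 and 6.22 in nontumor liver. No values overlapped (4.21 ± 0.24, 18.5-fold, adjusted p = 3.2e-06), and nontumor array 1 lay in the range of absent RNA. Its alpha partner Itgav averaged 10.54 ± 0.15 in tumors and 9.07 ± 0.33 in nontumor liver (1.47 ± 0.16, adjusted p = 8.5e-05). Itga8, the chain of mesenchymal and smooth muscle cells, lay at 9.91, 9.66, 9.92 and 9.94 in tumors and at 7.15, 7.35, 7.17 and 7.06 in nontumor liver. It rose by 2.67 ± 0.09 (6.38-fold, adjusted p = 6.2e-07), the smallest adjusted p among the members. The further probe set of Itga8 rose by 0.52 (adjusted p = 0.0093), from a nontumor mean within the range of absent RNA. Itgb5, a partner of alpha v, rose by 0.85 ± 0.10 (adjusted p = 1.3e-04) with 1 further probe set (0.84), while another that lay in the range of absent RNA was called lower (-0.23). Itga5, the fibronectin receptor chain, did not pass (0.23 ± 0.13, adjusted p = 0.15), and quantile normalization again brought it to -0.0035.

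The chains of platelets went opposite ways. Itga2b, specific to platelets and their precursors, fell (-0.84 ± 0.09, adjusted p = 6.7e-05) to values of 7.08 to 7.33 in tumors, against 7.97 to 8.23 in nontumor liver. Its partner Itgb3, which also pairs with alpha v in other cells, rose (0.46 ± 0.12, adjusted p = 0.0089), a call lost when the arrays were quantile normalized again (0.17, adjusted p = 0.24). Of 9 measured platelet and megakaryocyte markers, a list that holds both chains, 2 rose (Itgb3 among them) and 7 fell. The median difference of the list was -0.50, while 38.8% of all genes rose and 29.2% fell. The summed level, which includes Itgb3, went the other way, at 11.40 to 11.63 in tumors and 10.89 to 10.98 in nontumor liver. F2rl3 was within the range of absent RNA on every array. The part of platelet content in the values of these chains was not tested.

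Collagen-binding chains were not called: Itga1 averaged 10.44 ± 0.27 in tumors and 10.37 ± 0.15 in nontumor liver (0.07 ± 0.14, adjusted p = 0.67). Its sign turned without tumor array 3 (-0.062) and under both other scalings tried (-0.17 and -0.031). The collagen chain Itga11 had no exact level. The shared beta 1 chain, Itgb1, rose by 1.27 ± 0.08 (2.41-fold, adjusted p = 4.2e-06), by its brightest probe set, and by 1.76 in its other one. It averaged 12.98 ± 0.09 in tumors and 11.71 ± 0.08 in nontumor liver. Itga9, which binds tenascin and osteopontin, rose by 0.89 ± 0.11 (adjusted p = 1.6e-04), and its further probe set was not called (-0.14).

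Leukocyte chains rose in 5 of 7 cases (all genes: 38.8%) by mostly small amounts. Itgax, the CD11c chain of dendritic cells and some macrophages, was the exception, at 9.17, 9.20, 9.37 and 9.28 in tumors and at 6.87, 6.86, 7.31 and 7.16 in nontumor liver (2.21 ± 0.11, 4.62-fold, adjusted p = 2.2e-06). Its chromosomal neighbours on chromosome 1 differed less. Itgam, the CD11b chain of myeloid cells, rose by 0.70 ± 0.20 (adjusted p = 0.013), a call lost with quantile normalization again (adjusted p = 0.066). Itgad did not pass (0.07 ± 0.08, adjusted p = 0.43), and its sign turned under both other scalings (-0.11 and -0.032). The common leukocyte beta chain Itgb2 did not pass either (0.29 ± 0.16, adjusted p = 0.15), with values of 9.87 to 10.35 in tumors and 9.43 to 10.13 in nontumor liver, but passed without nontumor array 2 (0.43, adjusted p = 0.025). Itgb7 (0.58 ± 0.08), Itgae (0.57 ± 0.19) and Itgal (0.26 ± 0.10), chains of lymphocytes, rose, though tumor and nontumor values of Itgae and Itgal overlapped. With 1 array left out in turn, Itgae kept its call in 3 of 8 cases (adjusted p up to 0.074) and Itgal in 1 of 8 (adjusted p up to 0.10). Itgal was 0.0079 after quantile normalization again.

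Beside these, 4 of 11 macrophage markers rose and 3 fell, with a summed level of 15.03 to 15.26 in tumors and 14.48 to 15.16 in nontumor liver. The falls were the Kupffer cell genes Cd5l (-4.82 ± 0.57) and Clec4f (-3.85 ± 0.29), and Cd163. The rises were lysozyme (Lyz2, 2.05 ± 0.13), Adgre1, Csf1r and C1qa. Of T, B and NK cell markers 6 of 13 rose and 3 fell (summed level 11.98 to 12.25 in tumors and 10.98 to 11.12 in nontumor liver). Over all genes 38.8% rose and 29.2% fell, and the macrophage and lymphocyte counts were not tested against these shares. Of neutrophil and mast cell markers 7 of 11 rose and 0 fell, also at an unadjusted p under 0.05, with a summed level of 12.08 to 12.73 in tumors and 11.02 to 11.54 in nontumor liver. Camp, a neutrophil granule gene, was within the range of absent RNA on every array. Their part in the leukocyte integrin values was not tested.

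**Figure D4:**
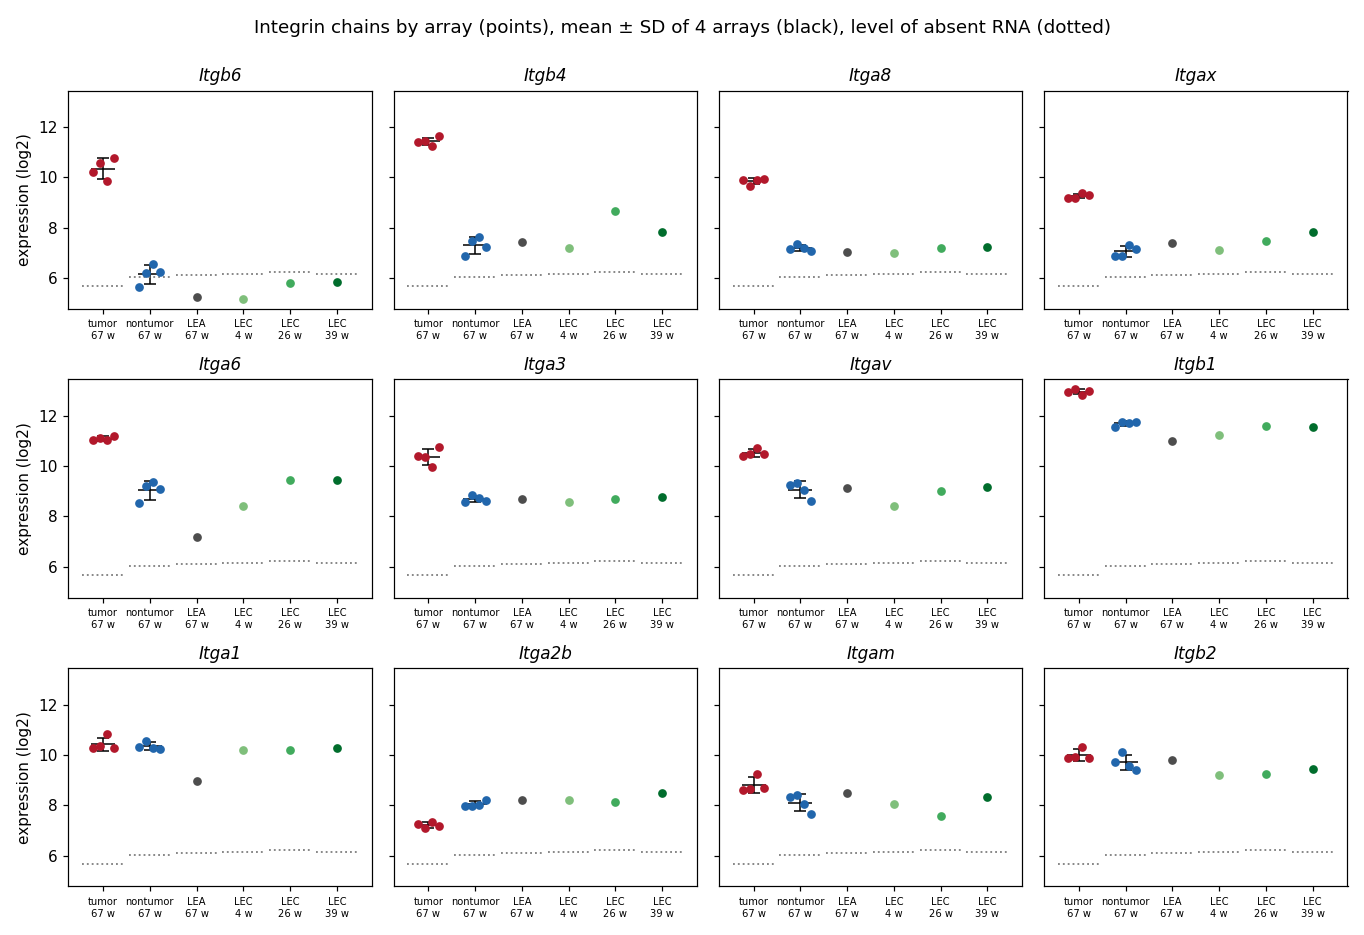
Expression (log2, vertical axis) of 12 integrin chains on each array, drawn as for the claudins. Itgb6, Itgb4, Itga8, Itgax, Itga6, Itga3, Itgav and Itgb1 are higher on all tumor arrays, Itga2b is lower, and the LEA array is lowest for Itga1 (8.97), Itga6 (7.16) and Itgb1 (11.02).

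Of the genes named after integrins, Itgbl1, a secreted protein of fibroblasts, lay at 8.13, 7.71, 8.10 and 8.17 in tumors and in or near the range of absent RNA in nontumor liver (5.15 to 6.01). It was at least 4.04-fold higher in tumors, measured against the highest control level on nontumor arrays (adjusted p = 1.4e-05). Itgb3bp, a centromere protein, rose by 1.27 ± 0.13 (adjusted p = 5.1e-05) and Itgb1bp1, a cytosolic regulator of beta 1 integrins, by 0.31 ± 0.08 (adjusted p = 0.0079), which quantile normalization again took to 0.0056 (adjusted p = 0.94). Itgb1bp2, a muscle protein, fell (-0.62 ± 0.10, adjusted p = 9.3e-04). Its tumor mean (5.72) lay just above the range of absent RNA on tumor arrays (up to 5.67), so the size of the fall is not exact.

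The list for the adhesion complex that integrins assemble, which includes the membrane proteins Cd9, Cd151 and Cd47, rose in 29 of 35 measured genes. In this list 1 gene fell and the median was 0.91, while 38.8% of all genes rose and 29.2% fell. The tetraspanin Cd9 (3.60 ± 0.28), the actin crosslinker filamin A (Flna, 2.80 ± 0.11) and the paxillin relative Tgfb1i1 (2.51 ± 0.16) led, and the talin Tln2 was the fall (-0.39 ± 0.11). Ligands of integrins rose in 13 of 22 genes and fell in 4, against 38.8% and 29.2% of all genes. Measured on both sides, Ccn2 (4.33 ± 0.31), the TGF-beta binding protein Ltbp1 (3.60 ± 0.23) and osteopontin (Spp1, 3.31 ± 0.31) rose most. Periostin (Postn) averaged 8.55 in tumors and was in the range of absent RNA in nontumor liver (4.75), so it was at least 5.8-fold higher in tumors (adjusted p = 3.5e-05). The falls were the plasma proteins vitronectin (Vtn, -3.32 ± 0.90) and the fibrinogen chains Fgb (-2.92 ± 1.01), Fga (-2.56 ± 0.87) and Fgg (-2.19 ± 0.78), all made by hepatocytes. Fibronectin (Fn1), the ligand of alpha 5 beta 1, did not pass (0.14 ± 0.12, adjusted p = 0.34).

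Tumor array 3 stood nearest to nontumor liver for many members, as it did for many genes of the whole series. It was the lowest of the 4 tumor arrays for 17 of the 31 members that rose (54.8%), and over all genes that rose the share was 60.7%. It was the highest for 5 of the 7 that fell (71.4%), against 45.4% of all genes that fell. Its stellate cell and fibroblast marker median was instead the highest in tumors (11.07, against 10.27, 10.42 and 10.62 on arrays 1, 2 and 4). Bile duct and progenitor markers rose in all 11 measured genes, against 38.8% of all genes. They had tumor medians of 10.92, 11.08, 11.19 and 11.15 and nontumor medians of 7.74, 8.69, 9.02 and 7.76, on arrays 1 to 4. Their summed level was 15.25 to 15.46 in tumors and 11.69 to 12.92 in nontumor liver. Nontumor arrays 2 and 3, with the higher duct marker medians, both lay above arrays 1 and 4 for 17 of the 52 members (32.7%), against 12.0% of all genes, an order chosen after the values were seen. Among the 31 members that rose in tumors it held for 15 (48.4%), against 20.4% of all genes that rose. Cldn7, Cldn8, Lama5, Lamb3 and Itgb4 were among the 15, and Itgb6 was not. The part of duct cell content in the member values was not tested. None of the 11 duct markers measured was in the range of absent RNA on all 12 arrays.

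Nontumor LEC liver was set against LEA liver of 67 weeks to ask how it differs from liver of the control strain. With 1 LEA array, its spread was assumed to be that of the replicated groups. Itga6 and Itga1 rose, the other 50 members did not pass, and 0 fell in limma (7 were higher and 4 lower at an unadjusted p under 0.05, 13.5% and 7.69%, against 5.12% and 7.24% of all genes). Called genes were 0.232% (rose) and 0.331% (fell) of all 14217. Itga6 lay at 8.52, 9.20, 9.37 and 9.08 on the nontumor arrays, against 7.16 on the LEA array (1.88 ± 0.26, adjusted p = 0.020). Itga1, a collagen and laminin receptor chain, lay at 10.34, 10.58, 10.30 and 10.24, against 8.97 (1.39 ± 0.22, adjusted p = 0.038). In both cases every LEC array, tumor and younger ages included, exceeded the LEA array. The Itga6 call rests on 1 probe set: its further ones gave 1.30 (adjusted p = 0.17), 1.10 (adjusted p = 0.19) and -0.38 (adjusted p = 0.47), and the mean over probe sets 0.98 (adjusted p = 0.067). Among stellate cell and fibroblast markers, 2 of 15 also rose, the collagens Col1a1 (2.10 ± 0.35, adjusted p = 0.046) and Col3a1 (1.36 ± 0.21, adjusted p = 0.037), with a summed level of 12.70 to 13.16 in nontumor LEC liver and 12.34 in LEA liver. The duct markers had a median difference of 0.74, with 0 of 11 called. Their summed level was 11.69 to 12.92 in nontumor LEC liver and 11.76 in LEA liver. At an unadjusted p under 0.05 in limma, 4 of 11 duct markers (36.4%) were higher, against 5.12% of all genes. So were 5 of 15 stellate cell and fibroblast markers (33.3%), and 0 of either list were lower, against 7.24% of all genes. The part of these 2 marker lists in the Itga6 and Itga1 values was not tested.

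Leaving out 1 array at a time, Itga1 kept its call in 1 of 8 cases (adjusted p from 0.0071 to 0.093) and Itga6 in 6 of 8 (adjusted p from 0.0013 to 0.055), with differences of 1.32 to 1.43 and 1.77 to 2.05. Itgb1, the beta partner of both, was higher by 0.69 ± 0.12 and missed the threshold (adjusted p = 0.055), while its further probe set rose (0.88). The laminin chain Lama3 was higher by 1.14 ± 0.21 (adjusted p = 0.061). Differences of more than 1 log2 unit for Cldn8 (2.03 ± 0.90, adjusted p = 0.42) and Lama5 (1.16 ± 0.60, adjusted p = 0.49) did not pass the test, and Cldn8 was in the range of absent RNA on the LEA array (4.31). Lama2 was lower (-0.91 ± 0.25, adjusted p = 0.20).

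All 11 LEC arrays lay above the LEA array for 10 members (19.2%), against 8.34% of all genes, and below it for 6 (11.5%), against 10.0% of all genes. The 10 were Itga1, Itga6, Itgb1, Itgbl1, Lama3, Lamb1, Cldn3, Cldn4, Cldn8 and Cldn10, and the 6 were Itga5, Itga7, Itgae, Cldn11, Cldn14 and Cldn16. On the LEA array Itgbl1, Cldn8, Cldn10 and Cldn11 lay in the range of absent RNA, where an order between levels is not exact. Among the 45 members above that range on the LEA array, 7 had all LEC arrays above it (15.6%, against 8.28% of all such genes) and 5 below (11.1%, against 10.2%), a filter added after the data were seen. Strain cannot be told apart from the 1 LEA pool in this count. With the arrays labelled 26 and 39 weeks left out, 10 members lay above and 7 below, against 9.17% and 12.1% of all genes. The median difference between nontumor LEC and LEA liver was 0.02 over the members and -0.03 over all genes. Of 104 genes in the 4 pathway lists 0 were called in limma in either direction, and 12 were higher (11.5%) and 2 lower (1.92%) at an unadjusted p under 0.05.

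The LEC pools of 4, 26 and 39 weeks describe LEC liver at younger ages, with 1 array and no test at each age. At 26 weeks, 6 members were at least 2-fold higher than at 4 weeks (11.5%, against 2.57% of all genes) and 0 were 2-fold lower (0.563% of all genes). They were Cldn8, Cldn7, Lama5, Lamb3, Itgb4 and Itga6. Cldn8 lay at 4.87, 8.82 and 6.92 at 4, 26 and 39 weeks. Since its level at 4 weeks is in the range of absent RNA, it was at least 6.38-fold higher at 26 weeks. Cldn7 lay at 6.66, 8.77 and 8.07, so both claudins were highest of the 3 ages at 26 weeks.

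Of the laminin and integrin genes among the 6, Lama5 lay at 6.93, 8.99 and 9.22 and Itga6 at 8.42, 9.47 and 9.44. In both genes this rests on 1 probe set, since between 26 and 4 weeks the further ones differed by 0.06 and -0.02 for Lama5 and by 0.33, 0.20 and -0.32 for Itga6. Lamb3 (6.44, 8.23 and 7.36) and Itgb4 (7.18, 8.67 and 7.83) were higher at 26 weeks than at 39. At 39 weeks Cldn7, Cldn8, Lama5 and Itga6 were at least 2-fold higher than at 4 weeks (4 of 52, 7.69%, against 2.51% of all genes) and 0 members were 2-fold lower (0.549%). For Cldn8 the measured difference at 39 weeks was 2.05, and the bound against absent RNA was 0.78. Between 39 and 26 weeks Cldn8 alone was 2-fold lower (-1.90, against 0.134% of all genes), and 0 members were 2-fold higher (0.0774% of all genes).

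All of these 6 rose in tumors. Every tumor array lay above every age pool for them, except tumor array 3 for Cldn8 (7.79, against 8.82 at 26 weeks). The nontumor arrays at 67 weeks lay below the 26 week value for Cldn7, Cldn8, Lamb3, Itgb4 and Itga6, and the highest Lama5 value there (8.99) matched it. Bile duct and progenitor markers had medians of 6.88, 8.55 and 8.54 at 4, 26 and 39 weeks, and 5 of 11 were at least 2-fold higher at 26 weeks than at 4. Cd24 differed most (3.18), followed by Prom1 (2.13), Krt19 (2.01), Epcam (1.79) and Cftr (1.44). Hepatocyte markers differed by a median of -0.03, with 0 of 14 past 2-fold. Markers of other cells also lay at least 2-fold higher at 26 weeks than at 4, namely the stellate cell genes Dcn (1.69) and Pdgfra (1.03), the endothelial Vwf (1.06), the macrophage gene Lyz2 (1.13) and the platelet gene Pf4 (1.26), and 0 in the marker lists lay 2-fold lower. The part of these cells in the 6 members was not tested, and age and the sex difference of the pools cannot be told apart.

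Other members were steadier over the ages. Cldn4, which rose 17.7-fold in tumors, lay at 6.82, 6.96 and 7.05, and Cldn6 at 7.67, 7.59 and 7.78. Lamb2 lay at 6.78, 7.07 and 7.23, and Itga8 at 6.99, 7.17 and 7.24. Itgb6 stayed in the range of absent RNA, at 5.16, 5.80 and 5.83. Cldn1, the claudin with the largest fall in tumors, lay at 8.85, 8.85 and 8.30. Every age pool lay below every tumor array for the first 5 of these genes, and above every tumor array for Cldn1.

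**Figure D5:**
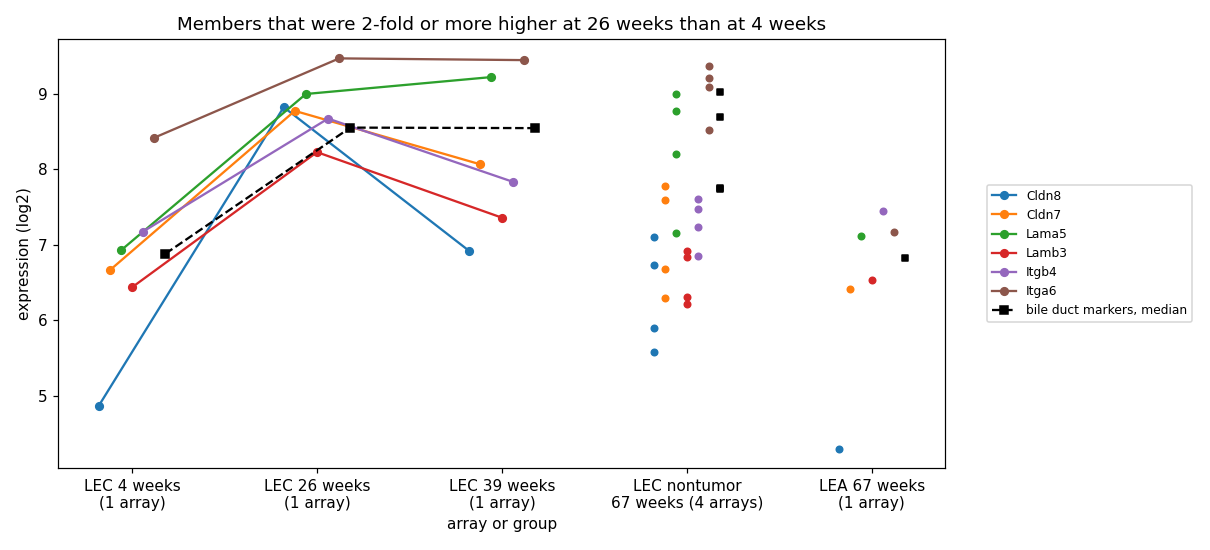
Expression (log2, vertical axis) of the 6 members at least 2-fold higher at 26 weeks than at 4 weeks, on the LEC arrays of 4, 26 and 39 weeks (joined by lines), the 4 LEC nontumor arrays and the LEA array at 67 weeks. The median of 11 bile duct markers (black squares) is 6.88 at 4 weeks and 8.55 at 26 weeks, and Cldn8 is in the range of absent RNA at 4 weeks (4.87) and on the LEA array (4.31).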

How the data were processed

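Liver RNA was hybridized to 12 Affymetrix rat expression arrays. The deposited values are log2 expression. The submitters' processing notes name RMA and R 2.6.1 as the authors' tools. RMA corrects background, quantile normalizes and summarizes probe sets; joint normalization of the arrays is not stated. The values were used as deposited. Array medians lay between 7.48 and 7.51 on the tumor arrays and between 7.39 and 7.44 on all others.

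Probe sets numbered 31099. The 57 controls were left out, and 31042 were tested. The platform annotation gave 20826 a single gene, 436 several and 9780 none listed here, and 20758 were matched to RefSeq by Entrez identifier. The members and lists were chosen with earlier results of these data known.

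Group means over all arrays were fitted with limma 3.58.1 (lmFit, eBayes) in R 4.3.3, with 6 residual and 2.84 prior degrees of freedom, with a two-sided test and Benjamini-Hochberg adjustment across every probe set (threshold 0.05). The fit was tested on simulated data. Single age arrays were compared by 2-fold differences. Named are, for tumors, up to 30 called members by size and all laminins and claudins above the absent RNA level in any group, for LEA up to 20 called members, for ages those past 2-fold, and from each list up to 3 rises and 3 falls. Further members, list genes and the motifs were chosen after their values were seen. Figures were drawn with matplotlib 3.10.9. Alternatives were other normalizations, filters, priors and weights, and leaving out arrays.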

Additional observations from a re-analysis of the deposited data

Results flagged for a closer look

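In 9 of 104 groups of 4 arrays examined, 1 array lay so far from the other 3 that the gap took most of the group's range, and chance gives this in about 5% of groups. The share of such groups over all genes was not measured, so whether these members differ from other genes was not tested. Tumor array 3 was the lone array in 5 cases. It was lowest for Cldn3 (11.45, next 12.06) and highest for the endothelial claudin Cldn5 (9.52, next 8.27), the collagen receptor chain Itga1 (10.84, next 10.35), the myeloid chain Itgam (9.27, next 8.69) and the leukocyte beta chain Itgb2 (10.35, next 9.94). Tumor array 2 was lowest for Itga8 (9.66, next 9.91) and Itgbl1 (7.71, next 8.10). Tumor array 4 was highest for Itgb3bp (8.96, next 8.49), and nontumor array 3 was highest for Lama2 (7.95, next 7.50).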

How the results depend on the processing

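Leaving out 1 array at a time gave 29 to 33 members that rose and 5 to 7 that fell in tumors, and 0 to 3 that rose in nontumor LEC liver against LEA. The LEA count of rises was 4 with array weights and 0 when only those 2 groups were fitted. With a 2-fold requirement 23 members rose and 2 fell in tumors. Quantile normalization again moved the median difference of all genes by -0.10 and gave 27 rises and 7 falls, and subtracting array medians gave 29 and 9.

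Signs turned only for members that had not passed the test. With quantile normalization again they were Cldn11 (0.064), Cldn18 (-0.024), Itga1 (-0.17), Itga5 (-0.0035), Itgad (-0.11) and Lama3 (-0.057), and with array medians subtracted Itga1 (-0.031) and Itgad (-0.032). Others were Cldn11 with the mean over probe sets (0.044) and Itga1 with array weights (-0.015). With arrays left out, Cldn18 ranged between -0.019 and 0.46, Itga1 between -0.062 and 0.14, and Itga7 between -0.20 and 0.027.

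Averaging probe sets took Lama5 to 1.02, Itga8 to 1.60, Itga6 to 1.09 and Lama4 to 1.03. The labels do not say whether the title number pairs tumor and nontumor arrays, so the main fit took no pairs. Tumor and nontumor arrays of the same title number correlated in their deviations at 0.05, 0.14, -0.08 and 0.14. Those of different numbers correlated at -0.14 to 0.11, which does not settle whether the number marks pairs. With the number as a replicate block 30 members rose and 6 fell. The causes of these moves were not tested. The arrays give no counts, and 5 members lay in the range of absent RNA in nontumor liver.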
